A study of Caenorhabditis elegans with 12 samples.

Results

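The comparison of *cat-1* RNAi with the empty vector (EV) used 8 of the 12 whole-worm mRNA libraries of the series, 4 labelled *cat-1* RNAi and 4 labelled EV. It covered the 13161 of 46739 deposited features, mostly genes, that reached 0.5 RPKM in at least 4 of the 12 libraries. RPKM gives the reads of a feature relative to its length and to the mapped reads of the library, and values were compared as log2(RPKM + 0.5). The worms of both groups were day 1 adults of the strain PMD216, fed *E. coli* HT115 that carried either a *cat-1* RNAi construct or the L4440 vector. By the labels PMD216 carries the transgenes dat-1p::GFP and dat-1p::sid1-SL2-rde-1 and the mutations rde-1(ne219) on V and rrf-3(b26) on II, and the methods of the study list fem-1(hc17) IV, eri-1(mg366) IV and lin-15B(n744) X as well. All of this is shared by both groups. The *dat-1* promoter restores *rde-1* and adds *sid-1* in dopaminergic neurons, where RNAi is meant to act, whereas the RNA came from the whole animal. The libraries are labelled as biological replicates. A further group of 4 libraries labelled *cat-2* RNAi, against tyrosine hydroxylase, entered the estimate of the spread and the last comparison.

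*cat-1* encodes the vesicular monoamine transporter, the worm counterpart of VMAT2, which loads dopamine, serotonin and other monoamines from the cytosol into synaptic vesicles. Dopamine is made from tyrosine by tyrosine hydroxylase (CAT-2) with tetrahydrobiopterin as cofactor and then by aromatic amino acid decarboxylase (BAS-1), is taken back up by DAT-1 and is degraded by monoamine oxidases. Without the vesicular transporter, dopamine is held to stay in the cytosol, where its oxidation gives reactive products. The comparison thus asks which transcripts of the whole worm differ when the transporter is targeted in dopaminergic neurons.

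The libraries labelled *cat-1* RNAi held 19170361 to 21493743 mapped reads, against 19229569 to 20089688 in EV. Along the leading component of the 8 libraries, which held 24.0% of the variance of log2 levels, replicates 1 and 2 of *cat-1* RNAi lay at 25.1 and 16.3, replicates 3 and 4 at −9.62 and −3.48, and the EV libraries between −12.4 and 0.75. Thus replicates 1 and 2 stood apart, while replicates 3 and 4 lay within the range of EV. Leaving out 1 of the 8 libraries moved the count of higher or lower genes by over 1.5 times in 40 of the 43 gene lists, counting any step to or from 0. Summed over marker lists, muscle genes were at 3522 to 3642 RPKM against 3631 to 4159.8 in EV, intestinal genes at 2903 to 3181 against 2814 to 3188, germline genes at 5032 to 5379 against 5168 to 5372 and neuronal genes at 643 to 655 against 630.4 to 650.5, so each of these tissues was represented and the ranges overlapped in all 4. The summed cuticle collagens did not overlap, at 8283 to 8627 RPKM against 8705 to 9397 RPKM in EV. In RNA of whole worms, fewer cells of a type and less RNA per cell cannot be told apart.

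The targeted gene, *cat-1* (chromosome X, 5705690 to 5710737, build ce11), was covered by few reads and was higher in the libraries of its own RNAi. It had 21, 12, 61 and 13 reads in replicates 1 to 4 labelled *cat-1* RNAi, against 5, 5, 2 and 3 reads in EV. This was 0.585, 0.322, 1.51 and 0.351 RPKM against 0.138, 0.139, 0.0547 and 0.0797 RPKM in EV. All 4 libraries labelled *cat-1* RNAi lay above every EV library, and replicate 3 alone held 61 of the 107 reads. The ratio of mean RPKM was 6.74 (exact permutation test, two-sided, p = 0.0286, which 4 against 4 libraries cannot go below), and 4.08 without replicate 3. Where in the transcript the reads fell cannot be read from a table of RPKM, and whether they derive from the RNAi construct was not tested. No loss of *cat-1* mRNA was measured in these libraries, and every direction below holds for the libraries as labelled. *rde-1* and *sid-1*, which the strain carries as transgenes beside the chromosomal genes, were at 36.9 to 39.2 and 37.9 to 42.0 RPKM in libraries labelled *cat-1* RNAi, against 36.0 to 39.6 and 40.1 to 43.3 RPKM in EV.

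The other genes of dopamine metabolism mostly overlapped between the groups. Of the 21 genes in this list, 17 could be tested. *cat-2* passed only through the libraries labelled *cat-2* RNAi, at 0.728 to 1.90 RPKM, against 0.263 RPKM or less in both compared groups. Of the 17, 1 gene, *qdpr-1*, had an unadjusted p under 0.05, beside 5.94% of all tested genes. The list had 0 such genes without EV replicate 1 or 3 or *cat-1* RNAi replicate 1 or 2, and 1 higher and 1 lower without *cat-1* RNAi replicate 3. *qdpr-1* encodes dihydropteridine reductase, which regenerates the tetrahydrobiopterin cofactor, and was at 42.8, 41.6, 47.7 and 44.6 RPKM, against 49.4, 47.8, 51.9 and 47.2 RPKM in EV. The ranges met only at their edges, with 3 of the 4 libraries labelled *cat-1* RNAi below every EV library. Its log2 difference was −0.15 (SE 0.0623), with an unadjusted p of 0.0294 from limma. *ptps-1*, whose product acts in the synthesis of the same cofactor, was at 17.5, 19.9, 16.8 and 18.2 RPKM, against 14.7, 16.07, 16.8 and 16.4 RPKM in EV. Here 3 of 4 libraries labelled *cat-1* RNAi were above every EV library, and the log2 difference was 0.17 (SE 0.0830). *cat-4*, which encodes GTP cyclohydrolase and starts the cofactor's synthesis, averaged 26.1 ± 2.45 RPKM against 27.2 ± 1.67 RPKM in EV (SD, n = 4 each). *bas-1*, the decarboxylase, averaged 8.15 ± 0.848 RPKM against 8.30 ± 0.891 RPKM in EV. Both differences were smaller than the spread between replicates.

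Several genes of these neurons were too low in whole worms to compare. *cat-2* had 7, 9, 2 and 4 reads in libraries labelled *cat-1* RNAi, against 4, 4, 7 and 4 in EV, and the reuptake transporter gene *dat-1* had 5, 2, 3 and 0 reads, against 2, 3, 2 and 3 in EV. *tph-1*, the tryptophan hydroxylase gene of serotonin synthesis, had 12 reads over the 4 libraries, against 23 in EV. Small differences in these genes could not be detected at this depth. The monoamine oxidase genes *amx-1*, *amx-2* and *amx-3* had log2 differences of 0.13, −0.08 and 0.10, and the catechol O-methyltransferase genes *comt-2* to *comt-5* of 0.18, 0.07, 0.23 and −0.07, and none of these 7 had an unadjusted p under 0.05. The enzymes of tyramine and octopamine synthesis, *tdc-1* and *tbh-1*, are expressed outside the dopaminergic neurons and were the most abundant of the list. *tdc-1* was at 128 to 134 RPKM against 127 to 135 RPKM in EV, and *tbh-1* at 96.5 to 103 against 97.2 to 107. Of 23 tested genes for dopamine receptors and their G-protein signalling, 1 had an unadjusted p under 0.05, beside the same 5.94% of all tested genes, and 0 without EV replicate 1 or *cat-1* RNAi replicate 2. This was *kin-2*, the regulatory subunit of protein kinase A, at 21.01, 20.2, 20.9 and 22.7 RPKM against 24.2, 23.9, 23.2 and 22.4 RPKM in EV, a log2 difference of −0.14 (SE 0.0547). Without EV replicate 2 or *cat-1* RNAi replicate 3 this list had 1 higher and 1 lower gene. The receptor gene *dop-4* was at 1.53 to 2.08 RPKM against 2.01 to 2.36 RPKM in EV, with an unadjusted p of 0.129 from limma.

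**Figure D1:**
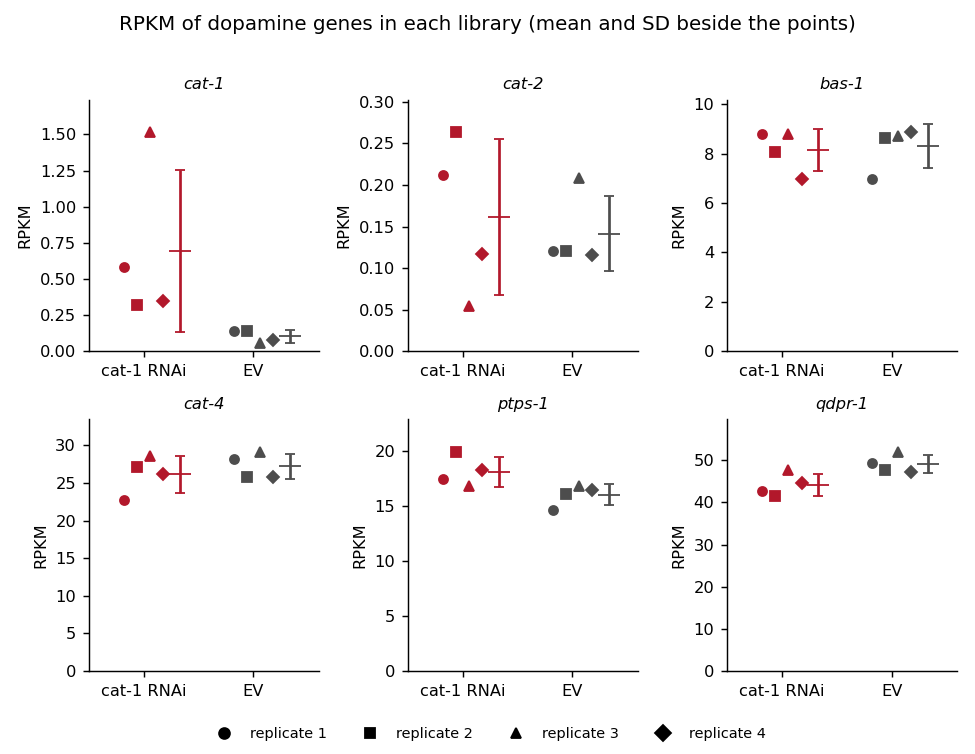
Level in RPKM of 6 genes of dopamine metabolism in each library, *cat-1* RNAi on the left and EV on the right, with the mean and SD (n = 4) beside the points. The 4 *cat-1* RNAi libraries lie above every EV library for *cat-1* itself, led by replicate 3, while *cat-2*, *bas-1* and *cat-4* overlap between the groups.

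Across all tested genes the differences were small. The median absolute log2 difference was 0.07, 95% of genes lay below 0.41, and the median standard error was 0.11. A log2 difference above 1 in either direction was seen for 16 genes, and 4 of these averaged at least 5 RPKM in either group. No gene passed an adjusted p of 0.05 (limma, Benjamini-Hochberg adjustment over 13161 genes, 0% called), and the smallest adjusted p was 0.522. At an unadjusted p under 0.05 limma gave 782 genes (5.94%), of which 454 were higher (3.45%) and 328 lower (2.49%) in libraries labelled *cat-1* RNAi. With limma's voom on the recovered reads, 0 genes passed and 727 had an unadjusted p under 0.05. All 4 libraries labelled *cat-1* RNAi lay above every EV library for 253 genes (1.92%) and below every EV library for 217 (1.65%). These shares are the background for each list below. The balance of higher and lower genes depended on the scaling. With quantile normalization 864 genes had an unadjusted p under 0.05 in limma, 428 higher and 436 lower. With each library centred on its own median there were 854, 300 higher and 554 lower. Centring moved the median of all genes to −0.04.

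The 454 higher genes leaned on replicate 1. Of the 4 libraries labelled *cat-1* RNAi, replicate 1 held the highest value for 230 of them (50.7%), replicate 2 for 102, replicate 4 for 82 and replicate 3 for 40. Over all tested genes replicate 1 was the highest of the 4 for 32.5%. Leaving out replicate 1 gave 233 higher and 275 lower genes, leaving out replicate 2 gave 247 and 336, and leaving out replicate 3 gave 824 and 391. The lower genes leaned on replicate 1 as well, with 109, 64, 60 and 95 lowest in replicates 1 to 4. Replicate 1 was the lowest of the 4 for 33.2% of the lower genes, against 21.6% of all tested genes.

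**Figure D2:**
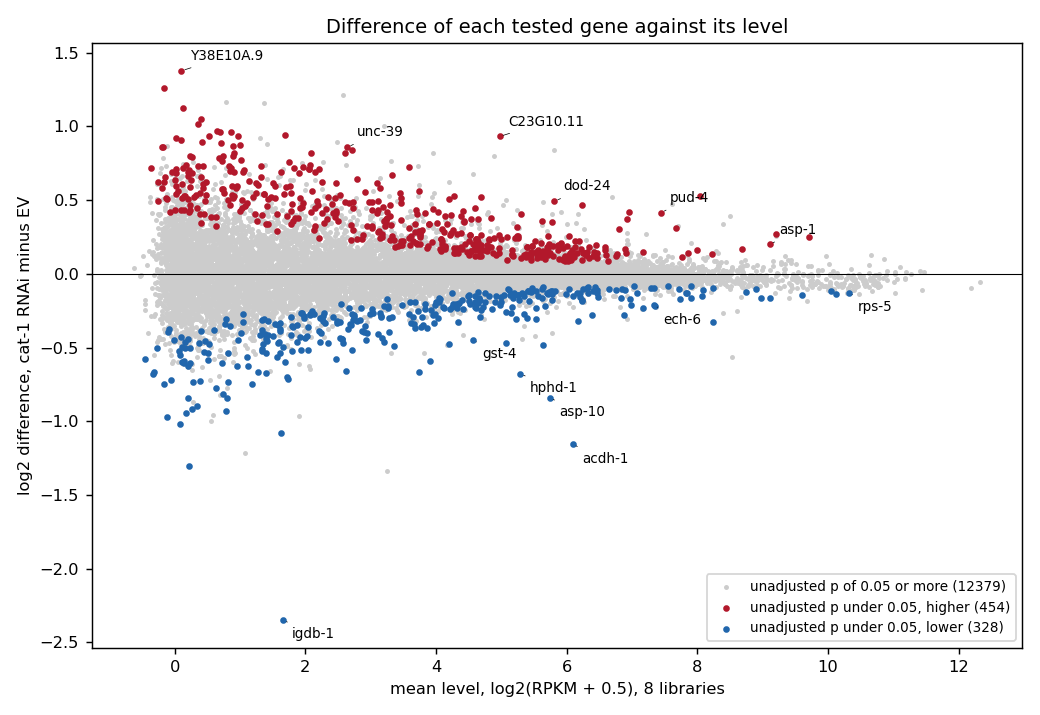
Log2 difference (*cat-1* RNAi minus EV) of each of the 13161 tested genes against its mean level over the 8 libraries, in log2(RPKM + 0.5), with red and blue points for the 454 higher and 328 lower genes at an unadjusted p under 0.05. *acdh-1*, *asp-10* and *hphd-1* stand below the other blue points of like level, and *igdb-1* is the lowest point of all.

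Most genes of the propionate shunt were lower. The shunt is the route by which *C. elegans* degrades propionate in mitochondria without vitamin B12, through an acyl-CoA dehydrogenase (ACDH-1), an enoyl-CoA hydratase (ECH-6), a hydroxyacyl-CoA hydrolase (HACH-1), a dehydrogenase (HPHD-1) and a semialdehyde dehydrogenase (ALH-8). The nuclear hormone receptors NHR-10 and NHR-68 activate its genes when propionate builds up, and dietary vitamin B12, which feeds the canonical route, keeps *acdh-1* low. Of its 7 tested genes, 5 were lower at an unadjusted p under 0.05 and 0 higher, beside 2.49% lower over all genes, with a median log2 difference of −0.21, beside 0.0039 over all genes. The list was chosen with earlier results for *acdh-1*, *ech-6* and *hphd-1* known, so its count is a description.

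*acdh-1* (chromosome I, 6497436 to 6499560) was at 29.2, 42.3, 39.2 and 57.5 RPKM in libraries labelled *cat-1* RNAi, against 66.4, 113, 91.7 and 103 RPKM in EV. Every library labelled *cat-1* RNAi was below every EV library, with replicate 1 the lowest. EV replicate 1 was also the lowest of its group. The log2 difference was −1.16 (SE 0.209) and ranged over −1.32 to −0.998 when any 1 of the 8 libraries was left out. *hphd-1*, listed in the table under its sequence name Y38F1A.6 (chromosome II, 12994354 to 12996571), was at 23.2, 28.4, 32.2 and 34.9 RPKM, against 37.7, 55.1, 48.2 and 49.9 RPKM in EV. As for *acdh-1*, replicate 1 was the lowest of each group, and the groups did not overlap. The log2 difference was −0.68 (SE 0.133).

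*ech-6* (chromosome III, 9751552 to 9752883) was the most even of these genes, at 145, 147, 148 and 156 RPKM against 168, 181, 169.9 and 173 RPKM in EV. The gap between the groups was larger than the range within libraries labelled *cat-1* RNAi, and the log2 difference was −0.21 (SE 0.0416). The receptor gene *nhr-68* was at 11.002, 11.93, 12.8 and 12.98 RPKM, against 14.1, 16.5, 16.9 and 16.11 RPKM in EV, again without overlap, with a log2 difference of −0.37 (SE 0.0828). *alh-8*, the last enzyme, was at 219, 215, 239 and 227 RPKM, against 237, 292, 236 and 246 RPKM in EV. Its groups overlapped, EV replicate 2 was well above the other 3, and the log2 difference was −0.16 (SE 0.0713). The remaining 2 genes had no unadjusted p under 0.05. *hach-1* (F09F7.4 in the table) was at 61.4, 62.0, 63.5 and 65.5 RPKM against 65.2, 67.1, 65.3 and 70.5 RPKM in EV, and the second receptor gene, *nhr-10*, at 15.9, 16.0, 14.3 and 14.3 RPKM against 13.1, 14.4, 15.8 and 13.1 RPKM in EV, with log2 differences of −0.09 and 0.10. The unadjusted p-values of *acdh-1*, *hphd-1*, *ech-6* and *nhr-68* from limma were 0.000177, 0.000198, 0.000155 and 0.000555. Their adjusted p-values from limma with Benjamini-Hochberg adjustment were 0.522, 0.522, 0.522 and 0.635, so none passed. Summed over the 7 genes the level was 505, 523, 549 and 567 RPKM, against 601, 739, 643 and 672 RPKM in EV, with every library labelled *cat-1* RNAi below every EV library.

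The canonical, vitamin B12 dependent route held 1 such gene. Of 23 tested genes for propionyl-CoA breakdown, cobalamin handling and the methionine cycle, 1 was lower and none higher by the same threshold, and the median log2 difference was −0.02. Lower genes numbered 3 without *cat-1* RNAi replicate 2 and 2 without EV replicate 3. The 2 subunits of propionyl-CoA carboxylase, *pcca-1* and *pccb-1*, were at 117 to 126 and 132 to 145 RPKM, against 117 to 121 and 137 to 146 RPKM in EV. Methylmalonyl-CoA mutase (*mmcm-1*) was at 67.6 to 73.9 RPKM against 70.8 to 75.9 in EV, methionine synthase (*metr-1*) at 54.3 to 59.7 against 54.4 to 58.0, and the S-adenosylmethionine synthetase *sams-1* at 36.3 to 44.0 against 37.1 to 40.0. All 5 had overlapping groups. *pmt-2*, a methyltransferase that uses S-adenosylmethionine to make phosphatidylcholine, was the 1 lower gene, at 104, 104, 108 and 113 RPKM against 115, 120.1, 120.1 and 125 RPKM in EV without overlap, a log2 difference of −0.16 (SE 0.0452). *nhr-114*, a receptor gene responsive to vitamin B12 and methionine supply, was at 2.79 to 5.46 RPKM against 4.52 to 6.45 RPKM in EV, a log2 difference of −0.31 (SE 0.179). The folate transporter gene *folt-2* was among the 5 largest negative differences of the genes with an unadjusted p under 0.05 and an average of at least 5 RPKM in either group, at 7.44, 9.59, 9.9999 and 12.2 RPKM against 12.03, 21.1, 14.6 and 16.2 RPKM in EV, with replicate 4 of *cat-1* RNAi just above EV replicate 1.

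**Figure D3:**
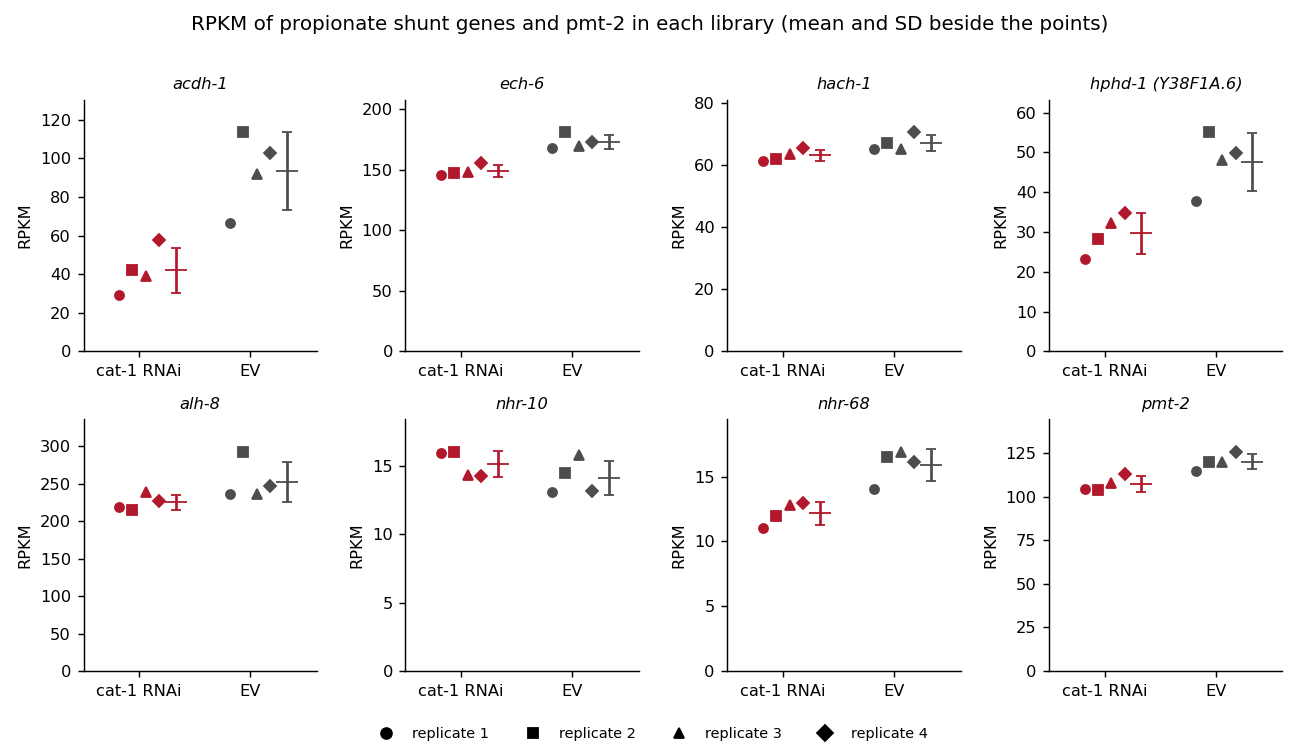
Level in RPKM of the 7 propionate shunt genes and *pmt-2* in each library, *cat-1* RNAi on the left and EV on the right, with the mean and SD (n = 4) beside the points. The groups do not overlap for *acdh-1*, *ech-6*, *hphd-1*, *nhr-68* and *pmt-2*, and overlap for *hach-1*, *alh-8* and *nhr-10*.

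Other genes of fatty acid and carbohydrate breakdown were slightly lower more often than higher. For fatty acid beta-oxidation 5 of 34 tested genes had an unadjusted p under 0.05, all lower (median −0.03). Of these *acdh-1* and *ech-6* also belong to the shunt. *hacd-1*, a hydroxyacyl-CoA dehydrogenase gene, was at 66.5, 81.8, 74.3 and 77.5 RPKM against 88.4, 97.4, 89.6 and 88.1 RPKM in EV without overlap, a log2 difference of −0.28 (SE 0.0594). *kat-1*, the ketoacyl-CoA thiolase of mitochondria, differed by −0.11 (SE 0.0421). Lower beta-oxidation genes numbered 3 without EV replicate 3 or *cat-1* RNAi replicate 1, the last with 1 higher. Of 38 genes for fatty acid synthesis, desaturation and activation 4 were lower and 1 higher (13.2% in all). The 4 became 2 without EV replicate 3 or *cat-1* RNAi replicate 1 or 4, and the 1 became 0 without EV replicate 4 or *cat-1* RNAi replicate 1 or 2 and 2 without *cat-1* RNAi replicate 3. The lower ones included the elongase gene *elo-6* at 249, 272, 242 and 258 RPKM against 277, 277, 289.7 and 289 RPKM in EV, the acyl-CoA synthetase gene *acs-1* (−0.12) and the hydroxyacyl-CoA dehydratase gene *hpo-8* (−0.10). The higher one was *fasn-1*, fatty acid synthase, at 29.3, 24.9, 20.3 and 23.6 RPKM against 21.2, 21.8, 19.4 and 18.6 RPKM in EV, led by replicate 1. The intestinal lipid chaperone gene *lbp-8* was at 4.01, 5.21, 3.73 and 3.54 RPKM, against 5.96, 12.6, 4.79 and 5.57 RPKM in EV. Its log2 difference of −0.66 (SE 0.241) ranged over −0.81 to −0.37 with single libraries left out. *far-4*, a fatty acid and retinol binding protein gene, was at 5.70, 6.84, 5.21 and 5.95 RPKM against 6.88, 7.94, 9.55 and 8.85 RPKM in EV without overlap.

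For glycolysis, gluconeogenesis and the citrate cycle, 5 of 50 tested genes (10%) were on the lower side and 0 on the higher side by the same threshold. Over all tested genes the shares were 2.49% and 3.45%. The median of the list was −0.05, and 9 of 50 had a positive difference. The lower ones included 3 genes for glyceraldehyde-3-phosphate dehydrogenase. *gpd-3* was at 137, 152, 159 and 152 RPKM against 169.9, 192, 165 and 171 RPKM in EV, *gpd-2* at 102 to 124 against 119 to 144, and *gpd-4* at 197 to 234 against 231 to 248. The *gpd* copies are alike in sequence and may share reads, so their values are not independent. Pyruvate kinase (*pyk-1*) was at 96.1 to 109 RPKM against 109 to 112 RPKM in EV. The count of 5 depended on single libraries, with 2 after leaving out replicate 1 or replicate 2 of *cat-1* RNAi, 11 after leaving out replicate 3, and 3, beside 1 higher, after leaving out EV replicate 4. Nuclear genes of oxidative phosphorylation had 2 lower and 0 higher of 47 (4.26%, median −0.04), beside the same shares over all tested genes. The ATP synthase subunit gene *asb-1* was among them at 258, 261, 265 and 263 RPKM against 269.8, 271, 302 and 286 RPKM in EV. The 2 became 1 without EV replicate 3 or 4 or *cat-1* RNAi replicate 2 or 4. Their summed level was 9944, 10568, 10358 and 10518 RPKM, against 10713, 10629, 10610.0 and 10754 RPKM in EV, with every library labelled *cat-1* RNAi below every EV library.

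Ribosomal protein genes were 3 of the 5 most abundant genes with an unadjusted p under 0.05. *rps-5* was at 1184, 1136, 1379 and 1195 RPKM against 1369, 1291, 1342 and 1333 RPKM in EV, and *rps-0* and *rpl-31* differed by −0.12 and −0.14. With quantile normalization *rps-5*, *rps-0* and *rpl-31* differed by −0.06, −0.06 and −0.12. With centring *rps-5* and *rps-0* had unadjusted p-values of 0.0534 and 0.0667 from limma. Over the 80 genes of cytosolic ribosomal proteins 3 were lower (3.75%) and 0 higher, which is near the 2.49% lower over all tested genes. Of the 80 differences 10 were positive, and the median was −0.07. The summed level was 92676, 98716, 106975 and 100675 RPKM, against 105179, 102205, 103807 and 103340.0 RPKM in EV. Replicate 1 was the lowest and replicate 3 the highest of all 8 libraries, so the groups overlapped, and without replicate 3 the count of lower genes was 20. It was 0 without *cat-1* RNAi replicate 2 and 1 without *cat-1* RNAi replicate 1 or 4 or EV replicate 1, 3 or 4. The scaling mattered too. With quantile normalization 2 were lower and the median was −0.02, and with centring 1 was lower and the median was −0.11. Mitochondrial ribosomal proteins had 1 higher and 1 lower of 70 (0 to 4 higher and 0 to 2 lower with single libraries left out, the 4 without EV replicate 1 or 3), and proteasome subunits 0 of 33.

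Detoxification genes with an unadjusted p under 0.05 were all lower. Cytochrome P450 enzymes (CYP), UDP-glucuronosyltransferases (UGT) and glutathione S-transferases (GST) modify and conjugate foreign and endogenous compounds, mostly in the intestine. Among 135 tested members 15 (11.1%) were on the lower side and 0 on the higher side at an unadjusted p under 0.05, beside 2.49% and 3.45% over all genes. The median was −0.04, and 49 of 135 differences were positive. Under quantile normalization 16 were lower and under centring 17, with 0 higher in both. With single libraries left out, 7 to 13 were lower and 0 to 2 higher, the 7 without replicate 1 of *cat-1* RNAi. Leaving out EV replicate 1 or 4 left 9 lower. *ugt-22* was at 42.4, 46.0, 49.6 and 49.1 RPKM against 53.0, 53.4, 56.2 and 55.2 RPKM in EV without overlap, a log2 difference of −0.22 (SE 0.0675). *ugt-32* was at 0.560, 1.62, 1.64 and 1.85 RPKM against 1.86, 2.1996, 2.59 and 3.14 RPKM in EV, also without overlap, with replicate 1 far below the other 3. *ugt-53* was at 1.59 to 2.63 RPKM against 2.38 to 3.62 RPKM in EV.

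*gst-4*, a glutathione S-transferase gene widely used as a reporter of SKN-1, a factor of the oxidative stress response, was at 17.4, 19.3, 20.3 and 20.8 RPKM in libraries labelled *cat-1* RNAi, against 24.2, 21.8, 29.5 and 32.8 RPKM in EV. The highest library labelled *cat-1* RNAi was just below the lowest EV library, and EV replicates 3 and 4 were the highest of the 8. Of 25 tested genes of SKN-1 and glutathione 3 were lower (12%) and 0 higher, beside 2.49% and 3.45% over all tested genes. The others were *gst-13* at 35.7, 41.2, 46.1 and 44.4 RPKM against 51.1, 53.5, 42.8 and 49.3 RPKM in EV and *ugt-11* at 2.101 to 2.92 against 2.88 to 3.87. All 3 also belong to the detoxification families. The 3 became 1 on leaving out replicate 1 or 2 of *cat-1* RNAi or replicate 1 or 4 of EV. Among 31 genes for superoxide, peroxide and thioredoxin enzymes 1 was higher. This was *trxr-1*, thioredoxin reductase, at 59.8 to 65.5 RPKM against 57.0 to 61.7 RPKM in EV. With centring the list had 0 higher genes, as it had without EV replicate 1, 2 or 3 or *cat-1* RNAi replicate 1, 2 or 4. *semo-1* (Y37A1B.5 in the table), a methanethiol oxidase gene outside these lists, was at 9.36, 11.7, 12.1 and 12.7 RPKM against 14.1, 14.9, 14.5 and 15.6 RPKM in EV without overlap.

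In other stress lists the share with an unadjusted p under 0.05 lay on both sides of the 5.94% over all tested genes. It was 8.70% for the mitochondrial unfolded protein response, 6.67% for heat shock and 6.45% for metal ions. For the endoplasmic reticulum response it was 4.35%, and for AP-1 and stress MAP kinases 2.78%. The heat shock list had 1 higher and 1 lower gene of 30. *sti-1*, a co-chaperone of HSP-70 and HSP-90, was at 147, 149, 158 and 147 RPKM against 153, 159, 165 and 165 RPKM in EV, and the HSP-70 family gene F44E5.5 at 1.39, 1.98, 1.31 and 0.270 RPKM against 0.426, 0.630, 0 and 0.241 RPKM in EV. F44E5.5 has a near-identical neighbour, F44E5.4, and its reads cannot be placed with certainty. The mitochondrial unfolded protein response had 2 lower of 23, the prohibitin gene *phb-1* (178 to 187 RPKM against 190.5 to 196 RPKM in EV) and *gpd-2*. The endoplasmic reticulum response had 1 higher of 23, the protein disulfide isomerase gene *pdi-2*, at 336, 323, 292 and 301 RPKM against 276, 279, 294 and 289 RPKM in EV, although centring left 0. In the list of AP-1 and stress MAP kinases the p38 gene *pmk-3* was the 1 higher gene of 36, at 7.26, 7.81, 5.65 and 6.54 RPKM against 4.92, 5.31, 5.53 and 5.91 RPKM in EV. The heme transporter genes *hrg-1* and *hrg-4* were the 2 lower of 31 genes of metal ion transport. *hrg-1* was at 5.46, 8.31, 6.97 and 7.98 RPKM against 9.55, 7.72, 11.3 and 10.8 RPKM in EV, and *hrg-4* at 2.15 to 3.79 against 3.46 to 4.88. Calcium channels, pumps and sensors had 0 of 47, as did RNA interference genes, 0 of 46. Without *cat-1* RNAi replicate 1 the heat shock, mitochondrial, endoplasmic reticulum, AP-1 and metal lists all had 0 higher and 0 lower genes. Without EV replicate 1 the mitochondrial and endoplasmic reticulum lists had 0, and without EV replicate 3 the heat shock, AP-1 and metal lists had 0. Without *cat-1* RNAi replicate 3 the mitochondrial list had 4 lower and 1 higher, the endoplasmic reticulum list 3 higher, the metal list 3 lower and RNA interference genes 4 higher and 2 lower, and without EV replicate 2 the metal list had 2 of each.

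**Figure D4:**
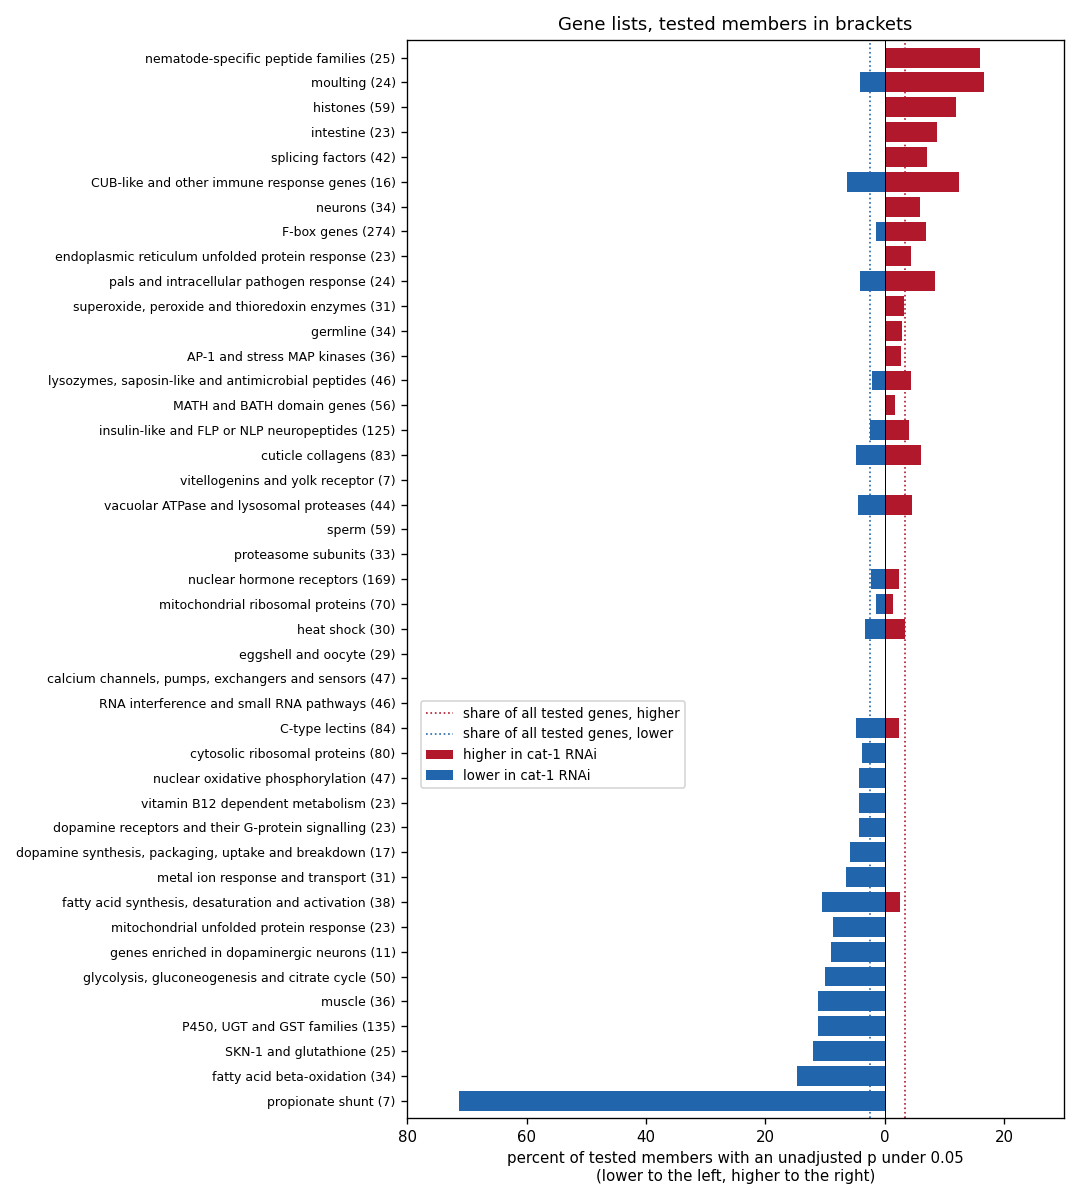
Share of each list's tested members with an unadjusted p under 0.05, lower in *cat-1* RNAi to the left in blue and higher to the right in red, with the number tested in brackets and the shares over all genes (2.49% lower and 3.45% higher) as dotted lines. The propionate shunt bar stands for 5 of 7 genes and that of the P450, UGT and GST families for 15 of 135, whereas lists with no bar had 0.

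*dod-24*, which encodes a CUB-like domain protein of the intestine used as a marker of immune and DAF-16 dependent responses, had the smallest p of all genes. It was at 71.7, 63.4, 59.9 and 65.8 RPKM in libraries labelled *cat-1* RNAi, against 51.0, 40.2, 45.4 and 48.6 RPKM in EV. The groups did not overlap, and the log2 difference of 0.49 (SE 0.0848) ranged over 0.43 to 0.54 with single libraries left out. It lies on chromosome IV, 12940106 to 12941354, near related genes. *dod-22* was at 14.8, 12.3, 10.13 and 12.9 RPKM against 9.70, 7.25, 7.69 and 9.83 RPKM in EV without overlap, a log2 difference of 0.51 (SE 0.143). *dod-21* was at 23.9 to 30.6 RPKM against 18.0 to 24.0 RPKM in EV, a log2 difference of 0.44 (SE 0.206). *dod-17*, chosen after its values were seen, was at 10.3 to 11.6 against 9.49 to 10.7, a log2 difference of 0.11 (SE 0.177). Of the 16 tested *dod* and *irg* genes, 2 were higher and 1 lower (18.75%, beside 5.94% of all tested genes). Lower genes numbered 3 without EV replicate 2 and 2 without EV replicate 1 or *cat-1* RNAi replicate 2 or 3. The lower one was *irg-5* (F35E12.5), a gene induced by infection, at 26.9, 31.5, 24.4 and 27.7 RPKM against 36.8, 43.9, 36.5 and 36.3 RPKM in EV without overlap.

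C-type lectins, secreted proteins of which many respond to infection, had 2 higher and 4 lower of 84 (7.14%, near the 5.94% of all tested genes). The 2 became 0 without EV replicate 4 or *cat-1* RNAi replicate 1 or 2, 1 without EV replicate 1, and became 4 on leaving out *cat-1* RNAi replicate 4. *clec-48* was at 17.03, 16.7, 15.2 and 16.9 RPKM against 19.9, 21.05, 18.0 and 19.4 RPKM in EV, and *clec-52*, *clec-178* and *clec-265* differed by −0.53, −0.43 and −0.19. All 4 were without overlap. Among lysozymes, saposin-like proteins and antimicrobial peptides 2 of 46 were higher and 1 lower (6.52%, also near that share). Of these *spp-4* was at 42.8, 47.3, 37.4 and 37.6 RPKM against 33.7, 36.9, 29.6 and 31.9 RPKM in EV. In this list the 2 became 1 without EV replicate 2 or 3 or *cat-1* RNAi replicate 1, 2 or 4, and the 1 became 0 without EV replicate 1, 2 or 3 or *cat-1* RNAi replicate 2 or 3 and 2 without *cat-1* RNAi replicate 4. The intestinal aspartyl protease *asp-1* was at 579, 545, 636 and 599.8 RPKM against 534, 535, 480.2 and 506 RPKM in EV, and the cathepsin B-like protease *cpr-3* at 24.9, 23.9, 21.8 and 27.2 against 19.4, 21.3, 18.4 and 21.8, both above every EV library. *asp-10*, of the same protease family as *asp-1*, was at 33.1, 52.3, 32.2 and 33.2 RPKM against 55.9, 54.3, 97.2 and 66.5 RPKM in EV, so members of 1 family lay on opposite sides. The *pud* genes, named for proteins that are more abundant in *daf-2* mutants, are a small family of which *pud-1.2*, *pud-3* and *pud-4* are neighbours on chromosome V. *pud-4* was at 225, 203, 193 and 174 RPKM against 140.1, 157, 158 and 139.9 RPKM in EV, and *pud-1.2* at 1000.4, 927, 861 and 861 against 684, 917, 741 and 732. *pud-3* and *pud-2.2* differed by 0.31 and 0.27. *pud-1.2* entered by its abundance, the other *pud* genes were chosen after their values were seen, and near-identical copies such as *pud-2.1* and *pud-2.2* may share reads.

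Higher genes included several for chromatin and RNA processing. Of 59 tested histone genes 7 were higher and 0 lower (median 0.07), and with centring 6 were higher. With any of the 8 libraries left out 5 to 7 were higher, and lower genes numbered 3 without *cat-1* RNAi replicate 2, 2 without *cat-1* RNAi replicate 4 and 1 without EV replicate 3 or 4. The linker histone genes *hil-3* and *hil-2* were at 102, 95.1, 70.8 and 79.4 and 151, 161, 111 and 128 RPKM, against 57.0, 60.9, 71.1 and 60.0 and 101, 106, 114 and 99.4 RPKM in EV. Replicates 1 and 2 were the highest and replicate 3 lay within the EV range for both. The core histone genes *his-6* and *his-16* had few reads, 68 against 30 in EV and 25 against 0 in EV, from families of near-identical copies, in poly(A) selected RNA. With 0 reads in EV, *his-16* could pass the filter only through libraries of the RNAi groups, which favoured its place among the higher genes. *set-26*, which encodes a chromatin-binding SET domain protein, was at 50.2, 50.002, 36.3 and 42.2 RPKM against 37.1, 35.4, 30.8 and 30.6 RPKM in EV. *snrp-200*, a helicase of the spliceosome, was at 102, 103, 94.3 and 108 RPKM against 93.4, 90.1, 86.5 and 89.0 RPKM in EV without overlap. Splicing factors had 3 higher (7.14%) and 0 lower of 42, *prp-21*, *hrpu-1* (Y41E3.11) and *hrp-2*, with log2 differences of 0.11, 0.11 and 0.11. On leaving out replicate 1 or 4 of *cat-1* RNAi or EV replicate 1 the 3 became 0, on leaving out EV replicate 2, 3 or 4 they became 1, and on leaving out *cat-1* RNAi replicate 3 they became 9. With centring the count was 0, and the median of the list was then −0.0037.

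F-box genes, a large family of adaptors for ubiquitin ligases, had 19 higher and 4 lower of 274 (8.39%). Over all tested genes 3.45% were higher and 2.49% lower, 5.94% in all. The F-box median was 0.10, and 178 differences were positive. Centring left 18 higher and 7 lower. The number of higher genes was 10 on leaving out replicate 1 or replicate 2 of *cat-1* RNAi, 12 on leaving out EV replicate 1 or 4, and 36 on leaving out *cat-1* RNAi replicate 3. Lower ones numbered 2 without EV replicate 1 or *cat-1* RNAi replicate 4. *fbxc-12* was at 2.95, 2.85, 1.94 and 2.397 RPKM against 1.21, 2.17, 1.596 and 0.881 RPKM in EV, and *fbxb-25* at 1.45, 2.13, 1.502 and 1.74 against 0.922, 1.33, 1.03 and 0.610. *fbxa-107*, on the other side, was at 5.76, 5.55, 5.54 and 5.82 RPKM against 7.51, 6.54, 8.04 and 6.75 RPKM in EV without overlap. Most members are low, and copies in the family may share reads. Nematode-specific peptide genes had 4 higher (16%) and 0 lower of 25, beside the same shares over all tested genes. Among them was *nspc-16* at 29.4, 28.0, 16.9 and 16.05 RPKM against 14.3, 19.8, 14.8 and 11.89 RPKM in EV. The 4 became 0 without *cat-1* RNAi replicate 1 or EV replicate 4, 2 without *cat-1* RNAi replicate 2 or EV replicate 1, and 1 with centring.

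Further genes with the smallest p-values had mixed roles. *tbc-14*, a Rab GTPase activating protein gene, was at 35.7, 34.4, 31.5 and 34.6 RPKM against 29.7, 29.5, 27.4 and 28.4 RPKM in EV, and *pqn-41*, which encodes a glutamine-rich protein, at 28.0, 24.5, 24.7 and 27.0 against 22.7, 21.8, 21.3 and 22.1. The Hippo pathway gene *sav-1* was at 11.03, 10.3, 9.42 and 8.94 RPKM against 7.86, 8.26, 7.25 and 7.08 RPKM in EV. All 3 were above every EV library. Of the genes without a described role, T12D8.5 was at 30.2, 27.7, 33.9 and 27.8 RPKM against 23.8, 23.3, 17.9 and 18.1 RPKM in EV, C50F7.5 at 12.2, 10.4, 14.3 and 9.25 against 14.97, 17.3, 17.4 and 20.3, and T19B10.2 at 64.1, 68.8, 64.4 and 56.0 against 82.9, 89.5, 70.6 and 74.5. Each was without overlap, T12D8.5 on the higher side and the other two on the lower. Y38E10A.9 had 3, 8, 4 and 8 reads, against 2, 0, 0 and 0 in EV, which is too few to size the difference. It was at 0.575 to 1.49 RPKM, against 0.380 RPKM or less in EV and 0.392 or less in libraries labelled *cat-2* RNAi. It thus passed the filter only through the libraries labelled *cat-1* RNAi, which favoured its place among the smallest p-values.

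The moulting list and genes of the epidermis and its matrix showed how the libraries labelled *cat-1* RNAi differed among themselves. The apical matrix protein gene *sym-1* was at 14.7, 8.78, 4.70 and 4.39 RPKM, against 3.99, 6.03, 3.04 and 2.87 RPKM in EV. The hedgehog-related gene *wrt-10* was at 25.5, 15.6, 9.56 and 8.50 RPKM against 8.30, 11.6, 5.91 and 6.93 RPKM in EV. The fibrillin-like gene *fbn-1* was at 3.83, 2.23, 1.34 and 1.05 RPKM against 1.20, 1.29, 0.683 and 0.611 RPKM in EV. In each, replicate 1 was highest and replicate 2 next, both above every EV library, and replicate 4 lay within the EV range. The transcription factor genes *unc-39* (a homeobox gene) and *ces-2* (a bZIP gene) followed, at 9.80, 9.82, 5.05 and 5.76 and 11.3, 8.54, 5.28 and 4.67 RPKM, against 2.78, 5.41, 3.41 and 4.00 and 3.17, 4.86, 3.35 and 3.80 RPKM in EV. Here too replicates 1 and 2 were the highest of the 8. *sym-1*, *wrt-10*, *unc-39* and *ces-2* were among the 5 largest positive differences of the genes with an unadjusted p under 0.05 and an average of at least 5 RPKM in either group, with log2 differences of 0.86 (SE 0.290) for *unc-39* and 0.84 (SE 0.371) for *sym-1*. *noah-1* and *ceh-43*, the first chosen after its values were seen, were also highest in replicates 1 and 2, with an unadjusted p of 0.0700 and 0.0634 from limma. In the moulting list 4 of 24 genes were higher and 1, the protease gene *nas-37* (2.67 to 3.81 RPKM against 3.68 to 4.74 RPKM in EV), was lower. This was 20.8% in all, beside 5.94% of all tested genes. The 4 became 0 without replicate 1 of *cat-1* RNAi, 1 without its replicate 2 or EV replicate 1, 3 or 4, and 7 without its replicate 3. Summed, the list was at 375, 353, 322 and 318 RPKM against 332, 335, 313 and 323 RPKM in EV. The summed cuticle collagens were at 8283 to 8627 RPKM against 8705 to 9397 RPKM in EV, with every library labelled *cat-1* RNAi below every EV library. By gene, cuticle collagens had 5 higher and 4 lower of 83 (10.8%, beside 5.94% of all tested genes). Without EV replicate 4 there were 3 higher and 2 lower, without *cat-1* RNAi replicate 4 there were 9 and 7, and without *cat-1* RNAi replicate 1 there were 3 and 4. The abundant adult collagens *col-140* and *col-122* were at 499.9, 519, 509 and 563 and 1069, 1054, 1089 and 1013 RPKM, against 567, 572, 564 and 645 and 1159, 1269, 1070.2 and 1153 RPKM in EV, and *dpy-7*, a collagen of the cuticle furrows, at 2.62, 1.22, 1.57 and 0.394 against 0.493, 0.586, 0.311 and 0.345.

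**Figure D5:**
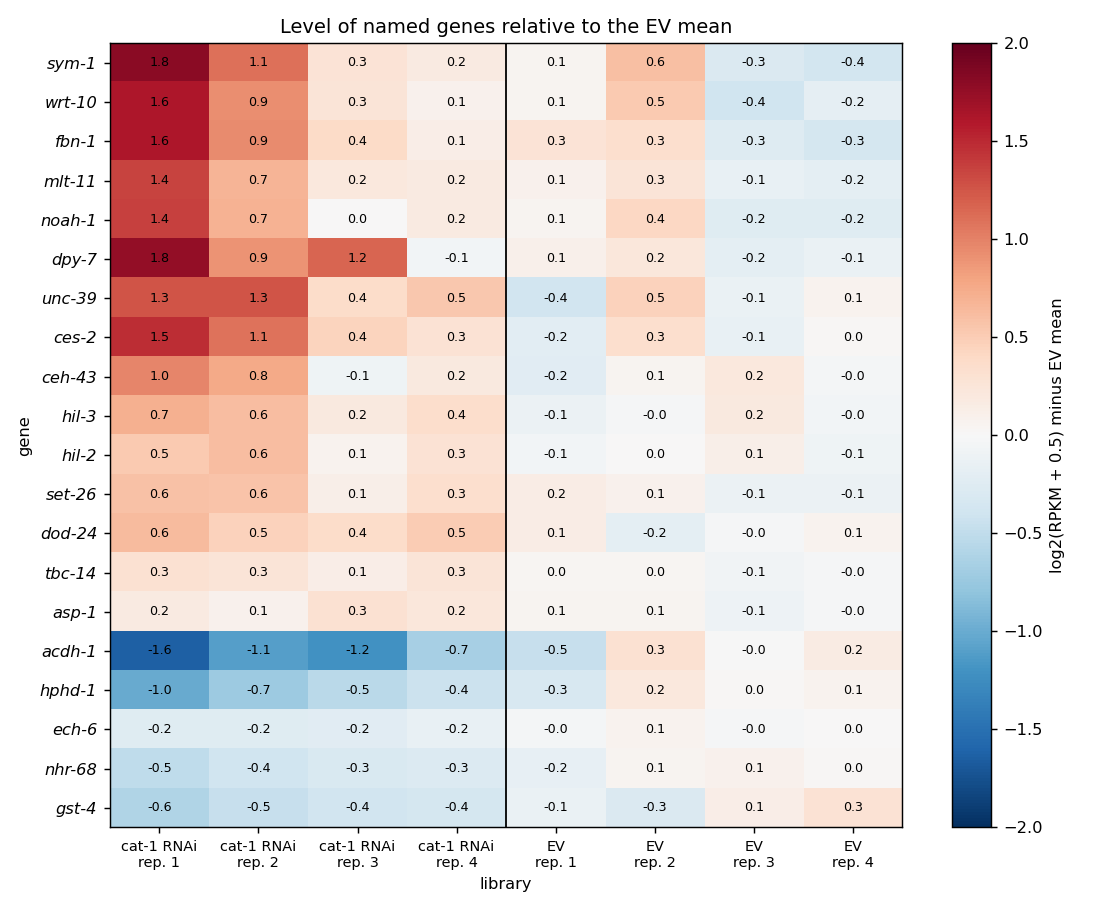
Level of 20 named genes in each library as log2(RPKM + 0.5) minus the EV mean, the 4 *cat-1* RNAi libraries left of the line and the 4 EV libraries right of it, with red for higher and blue for lower. The genes from *sym-1* to *ceh-43* are highest in replicates 1 and 2 of *cat-1* RNAi, apart from *dpy-7*, where replicate 3 is second. *dod-24*, *acdh-1*, *hphd-1*, *ech-6* and *gst-4* lie outside the range of the EV libraries in all 4.

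Tissue markers are read beside the same shares over all genes, 3.45% higher and 2.49% lower. Muscle genes had 4 lower and 0 higher of 36 (11.1%, median −0.07), above the share of lower genes. They were led by the troponin T gene *tnt-3* at 1.71, 1.51, 1.88 and 1.84 RPKM against 2.24, 3.65, 1.93 and 2.37 RPKM in EV. EV replicate 2 stood above the other EV libraries for the summed muscle genes. On leaving out EV replicate 2, 0 were lower and 2 higher, and the median was 0.03. The 4 became 1 on leaving out replicate 2, 3 or 4 of *cat-1* RNAi and 2 on leaving out EV replicate 1. Neuronal genes had 2 higher and 0 lower of 34. The 2 became 1 without any 1 of the EV libraries or *cat-1* RNAi replicate 1 or 2, and 4 without *cat-1* RNAi replicate 3, and 1 was lower without *cat-1* RNAi replicate 1. The active zone gene *elks-1* was at 15.6, 14.5, 13.2 and 13.4 RPKM against 11.3, 11.8, 12.01 and 12.04 RPKM in EV, and *unc-33*, a regulator of the neuronal cytoskeleton, at 18.7, 18.3, 18.1 and 18.3 against 16.08, 16.2, 16.08 and 15.8, both without overlap. Of 11 tested genes enriched in dopaminergic neurons 1 was lower, the tubulin gene *tba-9*, at 1.03, 1.10, 0.441 and 0.369 RPKM against 1.28, 1.29, 1.01 and 1.05 RPKM in EV. There, replicates 3 and 4 were low and replicates 1 and 2 within the EV range. On leaving out replicate 3 the list had 3 higher and 0 lower, on leaving out replicate 4 it had 1 higher and 0 lower, and on leaving out EV replicate 1 or 2 it had 0 of either. Vitellogenins and the yolk receptor had 0 of 7, sperm genes 0 of 59, eggshell and oocyte genes 0 of 29 and germline genes 1 of 34, the Polycomb gene *mes-6* at 58.2 to 63.6 RPKM against 54.8 to 58.2 RPKM in EV. The germline list had 0 higher genes without EV replicate 2, 3 or 4 or *cat-1* RNAi replicate 1, 3 or 4, and without *cat-1* RNAi replicate 3 there were 4 lower sperm genes, 3 lower eggshell and oocyte genes and 2 lower germline genes. With voom on the recovered reads the unadjusted p of *mes-6* was 0.0539. Insulin-like and FLP or NLP neuropeptide genes had 5 higher and 3 lower of 125 (6.4%), *flp-12* (0.33) and *ins-6* (−0.44) among them. Nuclear hormone receptors had 4 and 4 of 169 (4.73%), and both shares were near the 5.94% of all tested genes. With single libraries left out these were 2 to 6 higher and 1 to 5 lower neuropeptide genes, and 2 to 6 higher and 2 to 6 lower receptor genes. Leaving out *cat-1* RNAi replicate 2 gave the lowest higher count and the highest lower count for both.

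*igdb-1*, on chromosome IV from 12479011 to 12482426, had the largest difference of all tested genes and was chosen after its values were seen. It had 0, 0, 312 and 0 reads in replicates 1 to 4 labelled *cat-1* RNAi, against 205, 214, 237 and 350 reads in EV. The gene was thus without a read in 3 libraries and within the EV range in replicate 3. In the libraries labelled *cat-2* RNAi it had 84, 0, 0 and 0 reads. Neighbouring genes did not share the pattern, with *igdb-2* at 28.5 to 40.9 RPKM against 30.1 to 32.01 RPKM in EV and T04A11.4 at 3.24 to 4.09 against 3.40 to 4.95. Without replicate 3 of *cat-1* RNAi, *igdb-1* was the 1 gene that passed an adjusted p of 0.05 in limma with Benjamini-Hochberg adjustment.

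The genes with the 15 smallest p-values in each direction were also compared with the libraries labelled *cat-2* RNAi, in which dopamine synthesis rather than vesicular loading was targeted. The targeted gene was again higher in libraries of its own RNAi, with *cat-2* at 39, 26, 27 and 64 reads there, against 4, 4, 7 and 4 in EV, and no loss of *cat-2* mRNA was measured. Of these 30 genes 13 had an unadjusted p under 0.05 for *cat-1* RNAi against *cat-2* RNAi, beside 6.44% of all tested genes, 5 on the higher and 8 on the lower side, and 0 passed an adjusted p (smallest 0.549, limma with Benjamini-Hochberg adjustment over all genes). They were chosen with the same *cat-1* RNAi libraries, which favours such differences. C50F7.5 was at 9.25 to 14.3 RPKM in libraries labelled *cat-1* RNAi, 14.9 to 18.4 in those labelled *cat-2* RNAi and 14.97 to 20.3 in EV, a log2 difference of −0.52 (SE 0.124) between both RNAi groups. *far-4* was at 5.21 to 6.84, 8.03 to 8.66 and 6.88 to 9.55 RPKM in the same order of groups, a difference of −0.46 (SE 0.108), and *gst-4* at 17.4 to 20.8, 23.1 to 28.7 and 21.8 to 32.8 RPKM, a difference of −0.37 (SE 0.112). For these 3 genes the libraries labelled *cat-2* RNAi lay nearer to EV. Among the shunt genes, *ech-6* was at 145 to 156, 144 to 160.1 and 168 to 181 RPKM and *hphd-1* at 23.2 to 34.9, 28.0 to 35.7 and 37.7 to 55.1 RPKM, with differences of −0.02 (SE 0.0416) and −0.08 (SE 0.133) between both RNAi groups. *acdh-1* was at 29.2 to 57.5, 47.0 to 67.3 and 66.4 to 113 RPKM, a difference of −0.47 (SE 0.209) with an unadjusted p of 0.0466 from limma, and *nhr-68* at 11.002 to 12.98, 13.2 to 15.5 and 14.1 to 16.9 RPKM, a difference of −0.24 (SE 0.0828).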

How the data were processed

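Whole-worm mRNA of PMD216 (oligo(dT) selected, paired-end Illumina reads) was mapped by the authors with CLC software (version 9.0 in the methods of the study, Genomics Workbench 9.5 in its statistics section) to ce11, and the authors deposited RPKM for 46739 features in 12 libraries. How strand and multiply mapping reads were handled was not stated in any source used here. Columns of the authors' own comparisons (p-values and false discovery rates) and their group means were left unused. Whole reads were recovered from the steps of RPKM (100% of the 20423 features above 0, within 0.0001 reads). Genes that reached 0.5 RPKM in 4 or more of the 12 libraries were tested on log2(RPKM + 0.5), which understates the change of low genes, with limma 3.58.1 (R 4.3.3, trend and robust variance, 3 groups in 1 fit) and Benjamini-Hochberg adjustment, and the fit was tested on simulated data. The p-values measure the spread between the labelled biological replicates. *cat-1* was compared by an exact permutation test of RPKM. Tables were handled with pandas 2.3.3, numpy 2.4.6 and scipy 1.17.1 in Python 3.11.15. Coordinates are from Ensembl release 115 (same assembly as ce11), where 18706 features with a value above 0 (91.6%) matched.

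Members and lists were chosen with earlier results of these data known. The 43 lists were written from gene function, and 15 of their names were not found. The text names most, but not all, of the 15 genes with the smallest p in each direction. *sdz-6* and *nhr-161* are among those left out. It also names the 5 most abundant genes with an unadjusted p under 0.05. Of such genes that averaged at least 5 RPKM in either group, it names the 5 largest positive and 5 largest negative differences. From the lists it takes dopamine, shunt and vitamin B12 genes as needed, and up to 4 members of other lists by p. Other genes are said to be chosen afterwards. The 23 alternatives comprised other pseudocounts, filters, scalings, weights and fits, a replicate block, voom and leaving out each library. No sequence is shown.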

Additional observations from a re-analysis of the deposited data

Results flagged for a closer look

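In 16 of 336 groups of 4 libraries, 1 library lay far from the other 3 (by the 95% critical value of Dixon's gap over range), about as many as the 1 in 20 that chance flags. In *cat-1* RNAi replicate 3, R13A5.11 was at 1.01 RPKM (others 1.90 to 2.05), C23G10.11 at 22.2 (44.2 to 47.7) and *sti-1* at 158 (147 to 149). In *cat-1* RNAi replicate 1, *nspc-1* was at 76.2 RPKM (59.1 to 61.8), and the summed vitamin B12 dependent genes at 1818 (1863 to 1870). *asp-10* was at 52.3 RPKM in *cat-1* RNAi replicate 2 (32.2 to 33.2). In EV replicate 1, Y38E10A.9 was at 0.380 RPKM (0 in the others), *pyk-1* at 109 (112 in the others) and *grl-16* at 0.556 (0.826 to 0.869). In EV replicate 2, *hacd-1* was at 97.4 RPKM (88.1 to 89.6), *lbp-8* at 12.6 (4.79 to 5.96), *irg-5* (F35E12.5) at 43.9 (36.3 to 36.8), *hrpu-1* (Y41E3.11) at 61.0 (58.7 to 59.0), the summed germline genes at 5168 (5357 to 5372) and the summed muscle genes at 4160 (3631 to 3677). In EV replicate 4, *col-140* was at 645 RPKM (564 to 572).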

How the results depend on the processing

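The count of genes past an adjusted p of 0.05 (limma) was 0 under 22 of 23 alternatives and 1 without replicate 3 of *cat-1* RNAi, a range of 0 to 1 with single libraries left out. The 782 genes at an unadjusted p under 0.05 became 1294 with library quality weights and 508 to 1215 with single libraries left out (508 without replicate 1 and 1215 without replicate 3 of *cat-1* RNAi). The *cat-1* ratio of 6.74 was 4.08 to 7.94 with single libraries left out, where the exact permutation p cannot fall below 0.0571. No named gene with an unadjusted p under 0.05 changed direction under any alternative. With the replicate number as a block (replicate block), 907 genes had an unadjusted p under 0.05 and 0 an adjusted one. Deviations of same-numbered libraries correlated at 0.023 to 0.095, and 2 of 4 *cat-1* RNAi libraries correlated best with their own number, so the numbers were not taken as pairs. Low genes such as *cat-1* and *cat-2* were limited by depth.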
